A study of Mus musculus with 16 samples.

Results

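The comparison sets macrophages of the peritoneal cavity against CD4+ T cells of the spleen in 1 mouse strain, B10.Q/J. It uses 12 of the 16 arrays of the series, chosen by their labels alone: the 6 macrophage arrays and the 6 CD4+ T-cell arrays of that strain. Each cell type had 3 treatment groups of 2 arrays, taken after subcutaneous vehicle, 2 h after 10000 units of interferon alpha (IFNα) or 5 h after the same dose, and each vehicle pair joined 1 array of the 2 h time with 1 of the 5 h time. The other 4 arrays, of macrophages from mice without the IFNα receptor chain Ifnar1, did not enter the main fit. They were tested only in an alternative fit over all 16 arrays and are otherwise set beside the T-cell arrays.

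All 12 arrays came from male B10.Q/J mice 7 weeks old, a strain that carries a natural mutation of Tyk2, a kinase of the IFNα receptor, so that both cell types and the vehicle groups shared it. The cells were sorted by flow cytometry. Macrophages were taken as F4/80+ ICAM2+ and T cells as TCRB+ CD4+ CD8-, so the genes of those proteins, Adgre1, Icam2, Cd4 and Cd8a, are described here and are no finding. Macrophages came only from the peritoneal cavity and T cells only from the spleen, and cell type, organ and gate cannot be told apart. The labels leave unsaid whether the pair of arrays in a group came from 2 mice. The p-values below therefore rest on the spread between arrays, and that spread may be only technical.

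Macrophages are phagocytes that take up and digest particles in lysosomes and sense microbes with receptors encoded in the germ line. Their identity rests on the transcription factor PU.1 (Spi1), and in the large macrophages of the peritoneal cavity also on GATA6. CD4+ T cells recognise peptide on MHC class II through the T-cell receptor, whose CD3 chains carry the ITAM tyrosine motifs that recruit the kinase ZAP-70. Macrophages use the related kinase SYK behind the ITAM adaptors DAP12 (Tyrobp) and the Fc receptor γ chain (Fcer1g).

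Values are log2 of the deposited intensities, for 1 probe set for each of 19752 genes. A difference is the macrophage level minus the T-cell level within a treatment group, averaged over the 3 groups unless a group is named, with its standard error (SE) from limma's fit over the 12 arrays. A gene was called where the adjusted p was under 0.05 and the difference was at least 1 on the log2 scale, which is 2-fold. Each probe set has its own brightness, so the levels of different genes are not ranked against each other.

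The arrays followed their labels with 1 reservation. Cd3e, a chain of the T-cell receptor complex, had log2 levels from 12.24 to 12.57 (median 12.44) in the 6 T-cell arrays and from 7.19 to 7.52 (median 7.25) in the 6 macrophage arrays. Gata6 lay between 11.31 and 11.85 (median 11.63) in macrophages, and its T-cell levels ran from 6.57 to 7.21 (median 6.72). These ranges do not touch, and they include the vehicle T-cell array whose title begins with the letter B and the 5 macrophage arrays whose titles carry the letters Sp. Arrays of a group correlated over all genes at 0.9905 to 0.9971, and arrays of different cell types at 0.8517 to 0.8752.

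The reservation is that both T-cell arrays taken 2 h after IFNα carried macrophage transcripts. Lyz2, which encodes the macrophage lysozyme, had log2 levels of 7.34 and 7.67 in the vehicle T-cell arrays, 12.20 and 10.02 at 2 h, and 7.40 and 7.35 at 5 h. For Lyz2 the 2 h arrays thus reached 31.7% and 7.0% of the mean macrophage intensity, where the other 4 T-cell arrays lay between 1.09% and 1.37%. The share differed by gene and was lower for Alox15 (10.6% and 2.05%), Adgre1 (4.37% and 1.25%) and Vsig4 (3.96% and 0.937%). It is therefore no measure of the macrophage part of an array. Fibronectin (Fn1) was at 11.93 and 9.43 in the 2 h arrays against 6.69 to 7.46 in the other 4. Over 22 genes of the peritoneal macrophage signature, the mean level was 8.47 and 7.38 in the 2 h T-cell arrays, 6.85 to 7.02 in the other 4 and 12.13 to 12.27 in the macrophage arrays. Of 94 genes that were at least 5 higher in macrophages on the log2 scale, 70 (74.5%) were above all other T-cell arrays in both 2 h arrays, against 7.49% of all genes. The part of these transcripts in the results was not tested beyond leaving both arrays out, and the vehicle and 5 h comparisons do not draw their levels from them.

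**Figure D1:**
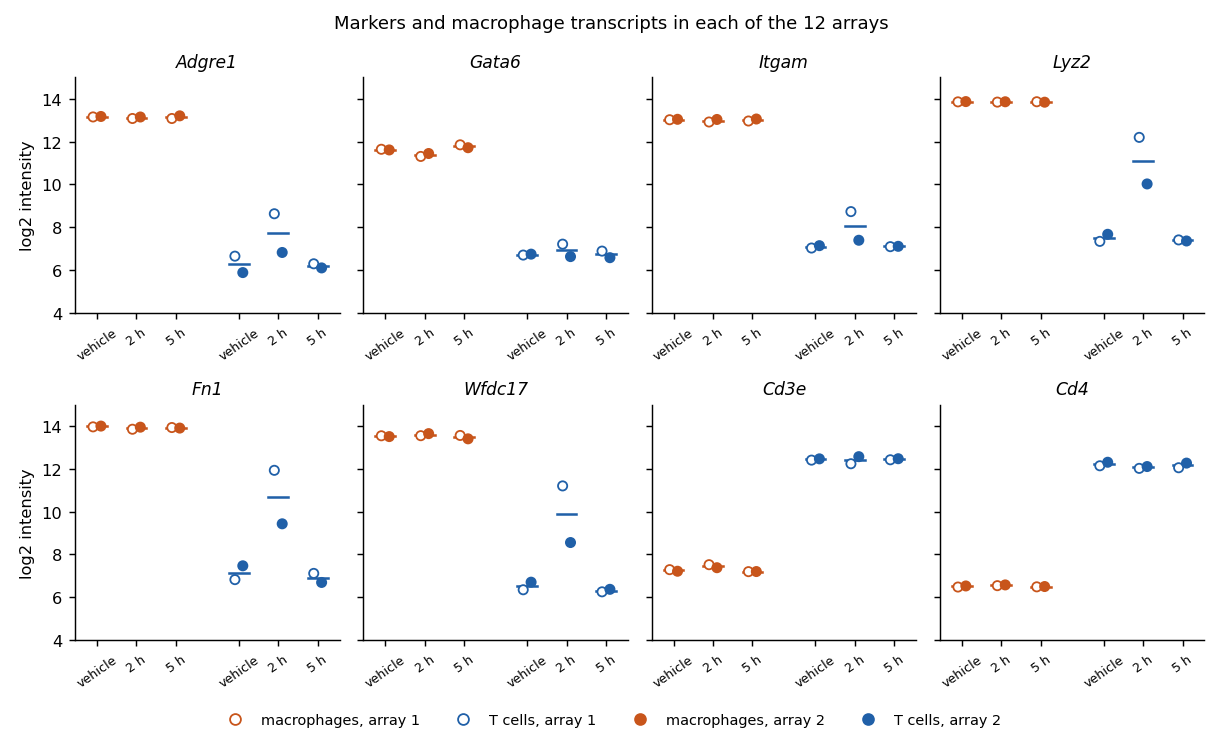
Log2 level of 8 genes in the 12 arrays, by cell type and treatment group; open points are array 1, filled points array 2 and lines the mean of the 2. The macrophage genes sit high in the 6 macrophage arrays, Lyz2, Fn1 and Wfdc17 also stand well above their other T-cell values in the T-cell arrays at 2 h, and Cd3e and Cd4 are high in the 6 T-cell arrays.

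The cell types differed widely, and more genes were higher in macrophages. Of the 19752 genes, 2562 (13%) were called: 1570 (7.95%) were higher in macrophages and 992 (5.02%) in T cells. At any size, 10974 genes (55.6%) had an adjusted p under 0.05 in limma's fit. A difference of at least 3 on the log2 scale was seen for 387 genes higher in macrophages and 153 higher in T cells, and of at least 6 for 25 and 10. The arrays of the cell types did not overlap for 2535 of the called genes, against 7826 of all genes (39.6%). In 706 of the 1570 genes the T-cell level was below the array's median gene in all 6 T-cell arrays, and in 340 of the 992 the macrophage level was below it in all 6 macrophage arrays. Without both T-cell arrays of 2 h, 1582 genes were higher in macrophages, 1539 of them the same genes, and 960 in T cells, 933 of them the same. In bulk samples of sorted cells, fewer cells of a type and less RNA per cell cannot be told apart.

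**Figure D2:**
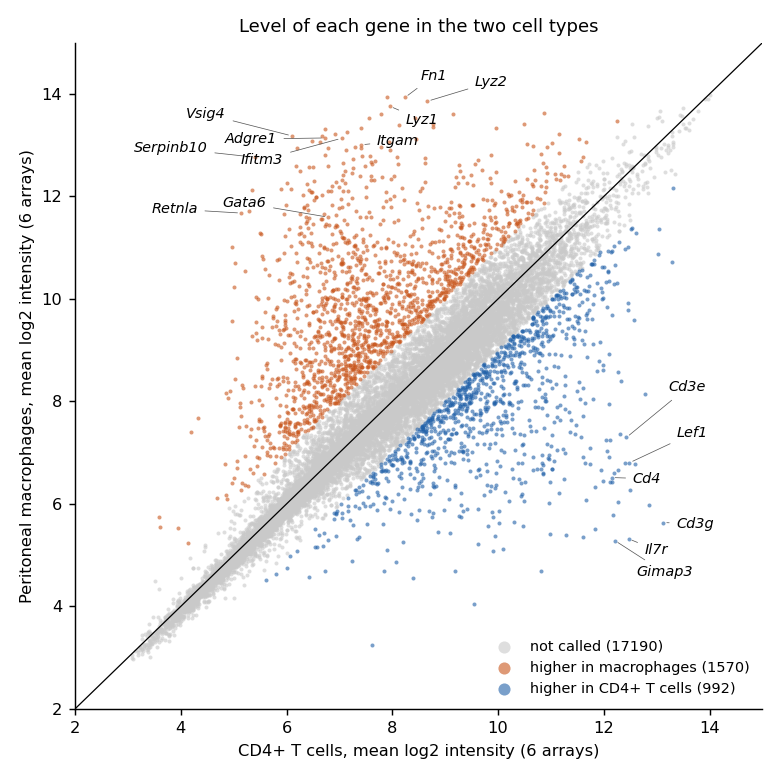
Mean log2 level of each of 19752 genes over the 6 T-cell arrays (horizontal) and the 6 macrophage arrays (vertical), with called genes coloured by direction. The 1570 genes higher in macrophages and the 992 higher in T cells lie on either side of the diagonal, and 17190 genes were not called.

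The genes furthest apart on the macrophage side encoded a serpin, a complement receptor and scavenger receptors. Serpinb10, a protease inhibitor of myeloid cells, had log2 levels of 12.63 to 12.86 (median 12.77) in macrophages and 4.58 to 7.42 (median 5.10) in T cells. Its difference was 7.36 ± 0.23 (SE), or 164-fold, and 7.89 without the 2 h T-cell arrays. Vsig4, a complement receptor of resident macrophages, was at 13.12 to 13.25 (median 13.18) against 5.23 to 8.52 (median 5.58). The difference was 7.08 ± 0.24, or 135-fold, and 7.75 without those arrays. Cd36, a scavenger receptor for oxidised lipid, followed with 11.92 to 12.33 (median 12.16) against 4.76 to 6.59 (median 5.15), a difference of 6.79. In each of these genes every macrophage array lay above every T-cell array, and the highest T-cell values were those of the 2 h arrays. Next came Serpinb2 at 6.75, the anaphylatoxin receptor C3ar1 at 6.60, the fatty-acid binder Fabp7 at 6.58, the resistin-like protein Retnla at 6.54, the chemokine Pf4 at 6.52, the acute-phase protein Saa3 at 6.44 and the G-protein regulator Rgs18 at 6.43.

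On the T-cell side the widest difference was that of a CD3 chain. Cd3g had log2 levels of 13.01 to 13.21 (median 13.13) in T cells and 5.49 to 5.95 (median 5.61) in macrophages, and was 179.5-fold higher in T cells (difference -7.49 ± 0.07). Il7r, the receptor chain for the survival cytokine IL-7, was at 12.26 to 12.65 (median 12.49) against 5.13 to 5.50 (median 5.33), a difference of -7.15. Gimap3, a GTPase of the immunity-associated family, was at 12.04 to 12.51 (median 12.18) against 5.22 to 5.33 (median 5.29), a difference of -6.93. In all 3 genes every T-cell array, those of 2 h included, lay above every macrophage array. Further down were Dapl1 at -6.88, the adhesion receptor Cd96 at -6.39, Tespa1, a T-cell signalling protein, at -6.32, Ms4a6b at -6.22, Gimap4 at -6.22, Ms4a4b at -6.11, Themis, which acts in T-cell receptor signalling, at -5.91, the chromatin organiser Satb1 at -5.82, the lipid phosphatase Inpp4b at -5.73 and the kinase Prkcq at -5.70. On the low side of the comparison, Cd3g, Il7r and Gimap3 were below the array's lower quartile of genes in all 6 macrophage arrays, and Serpinb10 and Cd36 in 5 and Vsig4 in 4 of the 6 T-cell arrays. Whether such levels stand above background is not known without detection calls, so the folds are ratios of the deposited intensities and the order of the widest differences is open to that limit.

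Promoters of some of these genes held the core letters bound by factors that differed between the cell types, and they are shown for that reason. The windows were read from RefSeq promoters on GRCm38.p6, which span 250 bases before to 50 after each gene's start, and 15435 of the 19752 genes matched one. The letters were searched on both strands: GAGGAAGT for PU.1, CTTTGAA for the T-cell factors TCF and LEF, and AGATAAG for GATA factors. Each line gives 100 bases, 5′ to 3′ along the gene's own strand, and capitals mark the match. The Retnla window is chr16:48842365-48842464 on the plus strand and the Pf4 window is chr5:90772335-90772434 on the plus strand, both with the PU.1 letters on the opposite strand. The Txk window is chr5:72752917-72753016 on the minus strand with the TCF and LEF letters on the opposite strand, and the Cd3g window is chr9:44980482-44980581 on the minus strand with the GATA letters.
Retnla: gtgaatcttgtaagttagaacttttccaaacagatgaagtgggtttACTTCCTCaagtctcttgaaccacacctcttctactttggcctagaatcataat
Pf4: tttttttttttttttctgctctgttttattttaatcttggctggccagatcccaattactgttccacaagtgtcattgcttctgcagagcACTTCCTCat
Txk: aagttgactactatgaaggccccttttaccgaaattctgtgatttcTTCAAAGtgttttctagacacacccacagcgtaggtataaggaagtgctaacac
Cd3g: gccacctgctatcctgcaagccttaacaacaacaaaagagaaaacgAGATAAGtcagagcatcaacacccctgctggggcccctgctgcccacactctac

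These matches describe letters and no binding. Counted from the gene's start, the match in Pf4 began at position -10, that in Cd3g at -104, that in Txk at -193 and that in Retnla at -198. Over called genes, the PU.1 letters stood in 4.22% of promoters of genes higher in macrophages, 4.28% of those higher in T cells, 2.77% of those of all measured genes and 3.2% of all promoters in the table. The TCF and LEF letters stood in 3.24%, 3.98%, 4.35% and 5.14%, and the GATA letters in 2.38%, 2.29%, 2.56% and 3.04%. Among the 40 genes with the widest difference on each side, 29 had a promoter in the table. Of those, 3 on the macrophage side held the PU.1 letters, and on the T-cell side 3 held the TCF and LEF letters and 1 the GATA letters. These are counts of genes and not of promoters, so they cannot be set against the shares above. Each motif was counted here on 1 side only, and the GATA letters not on the macrophage side.

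Transcription factors divided the cell types. Of 21 measured macrophage factors, 14 were higher in macrophages and none in T cells (median difference 2.51, against -0.05 over all genes). The counts of this and the following lists stand beside shares over all genes of 7.95% higher in macrophages and 5.02% in T cells. Spi1 had log2 levels of 11.93 to 12.32 (median 12.11) in macrophages and 6.17 to 7.50 (median 6.86) in T cells, a difference of 5.32 ± 0.13, or 40.1-fold. Gata6, whose levels are given above, was 28.0-fold higher in macrophages (4.81 ± 0.09). After them came Bhlhe40 at 4.14, Tfec at 3.77, Irf5 at 3.59 and the retinoic acid receptor Rarb at 3.22, while Pparg (0.69) and the red-pulp macrophage factor Spic (-0.35) were not called. Of 18 T-cell genes listed as factors or nuclear regulators, 17 were higher in T cells and none in macrophages (median -3.22). Lef1 was at 12.39 to 12.58 (median 12.48) in T cells and 6.71 to 6.89 (median 6.80) in macrophages, a difference of -5.68. The lymphoid factors Ets1 (-4.95), Ikzf3 (-4.56), Gata3 (-3.64) and Bcl11b (-3.46) were also called, and Tbx21, the factor of the Th1 lineage, at -0.81 was not. Themis, counted in that list, is a signalling protein and no transcription factor. The ranges of the 6 and 6 arrays did not overlap for Spi1, Gata6, Lef1 or Bcl11b. The same held for 2535 of the 2562 called genes and for 39.6% of all genes.

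Surface genes of macrophages were higher throughout most of the list. Of 30 measured, 27 were higher in macrophages and none in T cells (median 4.58). Itgam (CD11b), an integrin chain of the complement receptor CR3, was at 12.92 to 13.06 (median 13.03) in macrophages and 7.02 to 8.73 (median 7.12) in T cells, a difference of 5.59 ± 0.16, or 48.3-fold, and 5.93 without the 2 h T-cell arrays. The scavenger receptor Msr1 (6.24), the growth factor receptor Csf1r (5.01), the apoptotic-cell receptors Mertk (4.96) and Timd4 (4.72) and the lysosomal glycoprotein Cd68 (4.51) were called as well. Adgre1, by whose protein the cells were sorted, differed by 6.42 ± 0.22, with T-cell levels of 5.88 to 8.63. Lyz2 differed by 5.19 ± 0.25 over all arrays and by 6.42 without the 2 h T-cell arrays, and within treatments by 6.36 in vehicle, 2.75 at 2 h and 6.47 at 5 h. Clec4f, a Kupffer-cell lectin, and Stab2, of liver endothelium, differed by -0.01 and -0.04 and were not called.

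All 22 measured genes of the peritoneal signature were higher in macrophages (median 5.01). The count includes Icam2, the lowest of them at 2.30, by whose protein the cells were sorted. The list was compiled with the macrophage identity in mind, and its direction is no independent evidence. It held the B-cell chemokine Cxcl13 (6.31), coagulation factor F5 (6.16), the lipoxygenase Alox15 (6.02), thrombospondin Thbs1 (5.83), Fn1 (5.69), the growth factor Tgfb2 (5.34), the lubricin gene Prg4 (5.09), coagulation factor F10 (4.74) and the arginase Arg1 (3.79). The median of the list was 5.24 in vehicle, 4.36 at 2 h and 5.53 at 5 h, the 2 h value being the one that uses the T-cell arrays with macrophage transcripts. Without those arrays Fn1 differed by 6.93 and Alox15 by 6.84.

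Of 20 genes of the T-cell receptor complex and its co-receptors, 18 were higher in T cells and none in macrophages (median -4.12). Cd3e was 35.1-fold higher in T cells (-5.13 ± 0.06), Cd3d differed by -4.66 and the ζ chain Cd247 by -3.74. The costimulatory receptors Cd27 (-5.53), Cd2 (-5.29) and Cd28 (-5.18) were in the same range, and Cd4, a sort marker, was 49.7-fold higher in T cells (-5.63). Cd8a at -0.09, whose protein was also part of the gate, and the checkpoint receptor Lag3 at -0.34 were not called. The mean level of the list was 6.79 to 7.00 over the macrophage arrays and 10.48 to 10.63 over the T-cell arrays, so no macrophage array approached the T-cell values.

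Behind the receptors, the members of paired signalling families were split between the cell types. Zap70 was at 10.28 to 10.46 (median 10.37) in T cells and 6.66 to 6.91 (median 6.79) in macrophages, a difference of -3.58. Syk was at 10.32 to 10.71 (median 10.50) in macrophages and 6.33 to 6.97 (median 6.67) in T cells, a difference of 3.88. Each kinase thus had its high arrays in 1 cell type, with no overlap. Among 11 kinases measured, Btk (4.36), Fgr (3.35) and Tec (2.31) were also higher in macrophages and Txk (-4.69) and Fyn (-2.01) in T cells, while Src, Yes1, Blk and Csk were not called. The ITAM adaptors were divided in the same manner: Tyrobp (5.21) and Fcer1g (5.17) were higher in macrophages, the 4 CD3 and ζ chains in T cells, and Hcst (-0.77) was not called. Of 20 adaptors and effectors, 6 were higher in macrophages and 10 in T cells (median -0.55). Phospholipase Plcg2 (4.04) and the adaptor Lat2 (3.16) were higher in macrophages, and their relatives Plcg1 (-2.75) and Lat (-5.59) in T cells. Skap2 (2.22) and Skap1 (-4.95) differed in the same opposed way.

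**Figure D3:**
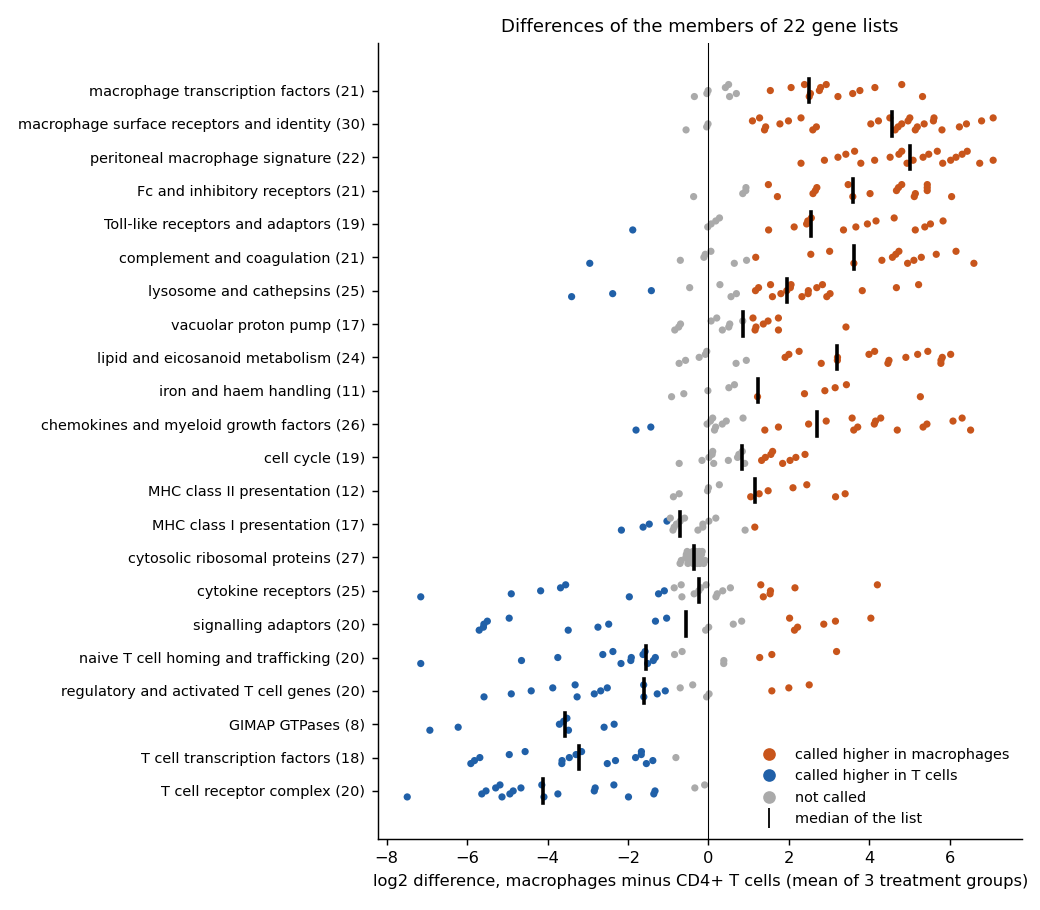
Difference between macrophages and T cells (log2, mean of the 3 treatment groups) for each measured member of 22 gene lists, with the list's median as a black bar. The peritoneal signature lies wholly to the macrophage side (median 5.01), the GIMAP genes wholly to the T-cell side (-3.56), and ribosomal proteins close to 0 (-0.35).

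Receptors of innate recognition were mostly higher in macrophages. Of 21 genes listed as Fc, inhibitory and related receptors, 17 were higher in macrophages and none in T cells (median 3.59). The widest were the C-type lectin Clec4e (6.05) and Lilrb4a, Cd300ld and Clec4d (each 5.44). The Fcγ receptors Fcgr2b (5.15), Fcgr3 (4.68), Fcgr4 (4.02) and Fcgr1 (2.66) were all called. Of 19 genes of Toll-like receptors and their adaptors, 14 were higher in macrophages (median 2.56). Among the receptors, Tlr13, a sensor of bacterial ribosomal RNA, differed by 5.83, Tlr8 by 4.62, Tlr4 by 4.17 and Tlr7 by 3.36. Tlr1, the partner of Tlr2 for lipopeptides, ran the other way. It lay at 10.27 to 10.57 (median 10.45) in T cells and 8.17 to 8.76 (median 8.66) in macrophages, a difference of -1.88 ± 0.09 with no overlap of the arrays. The shared adaptor Myd88 (0.28) and Tlr9 (-0.02) were not called.

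Complement, clotting and digestion genes followed. Of 21 complement and coagulation genes, 14 were higher in macrophages (median 3.62), among them C3ar1 (6.60), C1qc (5.67), C4b (5.29), properdin Cfp (4.66) and F13a1 (4.31). Cd55, which shields cells from complement, was higher in T cells, at 9.36 to 9.77 (median 9.66) against 6.04 to 7.32 (median 6.67), a difference of -2.95. Of 25 lysosomal genes, 18 were higher in macrophages (median 1.95), with cathepsin Ctsh at 5.23, progranulin Grn at 4.67 and Ctsl at 3.83. The exceptions were Acp5 (-3.40), Ctsw (-2.38), a cathepsin of cytotoxic lymphocytes, and Ctse (-1.42), which were higher in T cells. Of 17 genes of the vacuolar proton pump, which acidifies lysosomes, 8 were higher in macrophages and none in T cells (median 0.85), with Atp6v0a1 furthest at 3.42. Cybb, the catalytic chain of the phagocyte oxidase, differed by 5.93 and Ncf1 by 3.67, and 3 of 7 oxidase genes were called.

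Genes of lipid and iron handling were higher in macrophages or not called. Of 24 lipid and eicosanoid genes, 17 were called, all higher in macrophages (median 3.21). They included the leukotriene enzymes Alox5ap (5.78), Alox5 (5.20) and Ltc4s (4.49), the lipoprotein lipase Lpl (5.46), Fabp4 (5.78) and Apoe (4.46). The inducible cyclooxygenase Ptgs2 (-0.04) and Lta4h (-0.57) were not called. Of 11 iron and haem genes, 6 were called, all higher in macrophages, with transferrin Trf at 5.27 and haem oxygenase Hmox1 at 2.90. The iron exporter Slc40a1 was at 6.19 to 6.43 (median 6.31) in macrophages and 6.64 to 7.07 (median 7.03) in T cells, and at -0.61 it did not reach the 2-fold bound.

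Genes of movement and cytokine traffic were divided. Of 26 chemokines and myeloid growth factors, 16 were higher in macrophages (median 2.71), among them Ccl6 (6.08), Ccl9 (5.43), Cxcl2 (4.13) and Ccl3 (3.71). Tnf was higher in T cells, at 8.74 to 9.36 (median 9.03) against 6.93 to 7.49 (median 7.29), a difference of -1.80, and Ccl5 differed by -1.43. Il1b (-0.03), Cxcl1 (0.05) and Il10 (0.15) were not called. Of 20 homing genes, 13 were higher in T cells and 3 in macrophages (median -1.54). The lymph-node homing receptor Ccr7 was 25.1-fold higher in T cells (-4.65) and the integrin chain Itgal differed by -3.74, whereas Itgb1 (3.19), Cd44 (1.58) and the monocyte receptor Ccr2 (1.28) were higher in macrophages. Among 25 cytokine receptors 6 were higher in macrophages, with Il13ra1 at 4.20, and 8 in T cells, with Il2ra at -4.90 and Il2rb at -4.17. Of 20 genes of regulatory and activated T cells, 13 were higher in T cells, including Cd69 (-5.58), Cd40lg (-4.41) and the regulatory T-cell factor Foxp3 (-2.51), while the cytokines Il2, Il4, Il21 and Ifng were not called. The other 3 genes of that list, Capg (2.51), Nt5e (2.00) and Cd44, were higher in macrophages.

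Families that lie in clusters were not uniform. All 8 GIMAP genes, which encode GTPases of lymphocyte survival, were higher in T cells (median -3.56, from Gimap8 at -2.34 to Gimap3 at -6.93). The MS4A genes were split, with Ms4a8a (5.36) and Ms4a6d (3.72) higher in macrophages, Ms4a6b, Ms4a4b, Ms4a4c (-2.29) and Ms4a4d (-1.25) higher in T cells, and 5 of the 11 members below the array's median in all 12 arrays. Among 20 integrin chains, 6 were higher in macrophages and 3 in T cells. For antigen presentation, 7 of 12 class II and costimulation genes were higher in macrophages (median 1.16), with Cd80 at 3.40, Cd86 at 3.16 and H2-Aa at 2.10, while the class II regulator Ciita was at 0.00. Among 17 class I genes, Pdia3 (1.15) was higher in macrophages, and H2-Q4 (-2.16), the peptide transporter Tap1 (-1.62) and its partner Tap2 (-1.03) and the immunoproteasome chain Psmb8 (-1.47) were higher in T cells. H2-Ab1 (1.05) lay at the bound and fell to 0.93 without the 2 h T-cell arrays.

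Genes of protein synthesis, division and glycolysis were measured as general cell functions. None of 27 ribosomal protein genes was called by limma's test at 2-fold (differences from -0.08 to -0.70, median -0.35), though 25 had an unadjusted p under 0.05 and 24 an adjusted one, all 24 toward T cells. Over all 19752 genes, 11737 had such an unadjusted p and 10974 (55.6%) such an adjusted one. Of 19 cell-cycle genes, 8 were higher in macrophages and none in T cells (median 0.84). Mki67, a protein of dividing cells, was at 9.17 to 9.63 (median 9.43) in macrophages and 7.11 to 7.54 (median 7.40) in T cells, a difference of 2.03, without overlap. Bub1 (2.40), Ccna2 (2.17) and Top2a (1.55) were called with it, and the replication helicase genes Mcm2, Mcm3, Mcm5 and Mcm6 were not. Among 16 glycolysis genes, 6 were higher in macrophages, including Slc2a6 (3.39), Hk3 (1.90) and Hk2 (1.83), and the glucose transporter Slc2a3 was higher in T cells (-2.50).

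Markers of other cells were mostly low in both. Of 10 B-cell markers, 9 were below the array's median gene in all 12 arrays, as were 8283 of all 19752 genes. The means of the B-cell list were 6.45 to 6.56 in macrophages and 6.55 to 6.78 in T cells. None of its genes was called at 2-fold by limma, and 7 had an unadjusted p under 0.05, as had 11737 of the 19752. Also below the median in all 12 arrays were 11 of 12 neutrophil markers, 11 of 12 mast-cell and eosinophil markers and 7 of 10 mesothelial and stromal markers. The protease gene Mmp9 (1.25, higher in macrophages) was the 1 gene called among these 3 lists. Of 12 NK and CD8 T-cell markers, 4 were higher in T cells: Klrd1 (-3.21), Prf1 (-2.75), Nkg7 (-2.47) and Cd8b1 (-2.35). Their list mean was 5.54 to 5.77 in macrophages and 6.54 to 6.81 in T cells, although the gate took CD8- cells, and Cd8b1 was at 8.52 to 9.01 in the 6 T-cell arrays. Of 10 dendritic-cell markers, 1 was called, the lectin Cd209a (4.29, higher in macrophages), and the other 9 were not. Of 10 markers of small peritoneal macrophages or monocytes, 6 were higher in macrophages: Retnla, Folr2 (2.68), H2-Aa, Mrc1 (1.99), Irf4 (1.56) and Ccr2. Cd226 (-4.17) and Spn (-3.07) of that list were higher in T cells, and Cx3cr1 (0.21) and Nr4a1 (-0.34) were not called. The part of other cells in the results was not tested.

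Most genes of the IFNα receptor and its signalling were not called. Of 17 genes of the receptor, the JAK kinases and the STAT factors, 1 was higher in macrophages and 3 in T cells, and 13 were not called (median -0.26). The shares were 5.88% and 17.6%, against 7.95% and 5.02% of all genes. Ifnar1 was at 10.09 to 10.46 (median 10.26) in macrophages and 10.43 to 10.56 (median 10.52) in T cells, overlapping ranges with a difference of -0.26. Ifnar2, the partner chain, had a median of 11.95 in macrophages, with 11.90 as its lowest array, and lay at 10.36 to 10.55 (median 10.43) in T cells. It was 2.82-fold higher in macrophages, without overlap. Tyk2 was at 9.84 to 9.92 (median 9.85) and 9.39 to 9.90 (median 9.79), a difference of 0.13 ± 0.08 that limma did not call (adjusted p = 0.187). Jak1 (-1.16), Stat4 (-1.26) and the feedback inhibitor Socs1 (-1.37) were higher in T cells. Of 8 interferon regulatory factors, Irf5, Irf8 (2.39), Irf4 and Irf2 (1.00, at the bound) were higher in macrophages.

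Within treatment groups, 2561 genes (13%) were called in vehicle, 2678 (13.6%) at 2 h and 2594 (13.1%) at 5 h. Higher in macrophages were 1569 (7.94%), 1574 (7.97%) and 1618 (8.19%), and higher in T cells 992 (5.02%), 1104 (5.59%) and 976 (4.94%). At any size, 7834 genes (39.7%) had an adjusted p under 0.05 in limma's fit in vehicle, 8025 (40.6%) at 2 h and 8313 (42.1%) at 5 h. In all 3 treatment groups, 1387 genes were higher in macrophages and 795 in T cells. Called in opposite directions were 2 genes, Rtp4 and Slfn5, both higher in T cells in vehicle and in macrophages at 5 h.

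The antiviral genes induced by interferon leaned toward T cells in vehicle and toward macrophages 5 h after IFNα. Of 44 measured, 10 were called higher in T cells and 2 in macrophages in vehicle (median -0.45). At 2 h the counts were 4 and 11 (median -0.14), and at 5 h 2 and 20 (median 0.84). Of all genes, 5.02% were called higher in T cells and 7.94% in macrophages in vehicle. Those shares were 5.59% and 7.97% at 2 h and 4.94% and 8.19% at 5 h. The difference was above 0 for 16 of the 44 in vehicle, 21 at 2 h and 34 at 5 h, and 19 were below 0 in vehicle and above it at 5 h. From vehicle to 5 h the difference shifted toward macrophages for 40 of the 44 (median shift 1.24), where it did so for 48.8% of all genes. From vehicle to 2 h it did so for 33 of the 44 (median 0.50), against 53.2% of all genes. The mean level of the list in the single arrays was 8.28 and 8.31 in vehicle macrophages, 10.80 and 9.93 at 2 h, and 10.27 and 10.45 at 5 h. In T cells it was 8.49 and 8.51, then 10.42 and 9.69, then 9.22 and 9.25. The 2 h T-cell values come from the arrays with macrophage transcripts, and array 1, with more of them, also had the higher list mean. Among the macrophage arrays of 2 h, array 1 was likewise above array 2. The part of the macrophage transcripts, or of anything shared by arrays of the same number, was not tested. At 5 h, in arrays without raised macrophage transcripts, the T-cell arrays were nearer their vehicle level than the macrophage arrays were. 

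**Figure D4:**
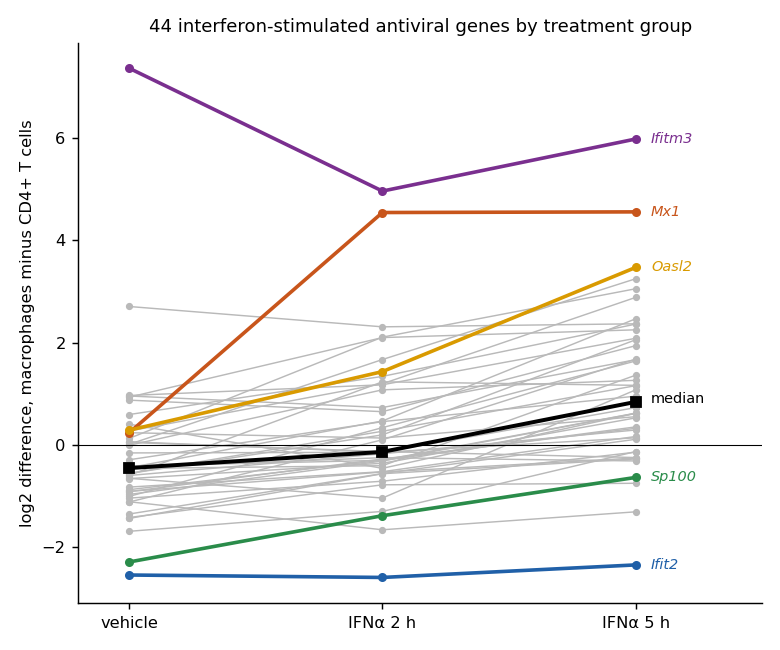
Difference between macrophages and T cells (log2) of 44 interferon-stimulated genes in vehicle, 2 h and 5 h after IFNα, 1 line per gene, with the median in black and 5 named genes in colour. The median moved from -0.45 in vehicle to -0.14 at 2 h and 0.84 at 5 h.

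Whether the difference between the cell types varied with treatment was tested by limma's moderated F test over both shifts. It called 26 genes (0.132%) at an adjusted p under 0.05, 1402 having an unadjusted p under 0.05. The shift at 5 h was toward macrophages in 23 of the 26. The count moved widely when 1 array was left out. It was 5 to 11 without any 1 of the 4 vehicle arrays (5 without T-cell vehicle array 1, 9 and 11 without macrophage vehicle arrays 1 and 2, and 10 without T-cell vehicle array 2), and 7 without any 1 of the 4 arrays at 5 h. It was 51 and 424 without T-cell array 1 or 2 of the 2 h group and 53 and 105 without macrophage array 1 or 2 of that group. It was also 7 to 12 with a filter on low values, quantile normalisation, another variance model or all 16 arrays in the fit.

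Mx1, which encodes an antiviral GTPase, had log2 levels of 6.15 and 6.12 in vehicle macrophages, 11.87 and 10.84 at 2 h, and 10.47 and 10.80 at 5 h. In T cells it was at 5.96 and 5.84, then 7.23 and 6.41, then 5.98 and 6.20. Its difference was 0.24 in vehicle and 4.55 at 5 h, a shift of 4.31 ± 0.39 (limma F, adjusted p = 0.000416), which missed the threshold under limma's trended and robust variance (adjusted p = 0.078). Macrophages were thus high at both times and T cells at neither. Rtp4, a transmembrane protein induced by interferon, began lower in macrophages, at 6.68 and 6.79 against 7.78 and 7.91 in T cells. At 2 h the cell types overlapped, with 11.63 and 10.96 in macrophages and 11.43 and 10.95 in T cells, and at 5 h macrophages were at 11.65 and 11.69 and T cells at 9.95 and 10.03. The difference went from -1.11 to 1.68 (limma F, adjusted p = 0.000928). Slfn5, a Schlafen protein, was higher in T cells in vehicle (limma, adjusted p = 0.0371) and 1.64 higher in macrophages at 5 h, but its variation with treatment did not pass limma's F test (adjusted p = 0.145).

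Further genes with a called variation changed mainly in the arrays of 1 cell type. Pde7b, a phosphodiesterase of cyclic AMP, was at 7.43 and 7.44 in vehicle macrophages and 9.80 and 9.79 at 5 h, while T cells stayed at 5.76 to 6.39 in all groups. Siglec1, the sialic-acid receptor CD169, was at 7.66 and 7.96 in vehicle macrophages, 9.15 and 8.87 at 2 h and 9.43 and 9.60 at 5 h, and between 7.27 and 7.46 in T cells. Neb, which encodes the muscle protein nebulin, was at 7.34 and 7.32 in vehicle T cells and 8.93 and 8.77 at 5 h, and between 6.59 and 6.70 in macrophages. The shifts of the difference at 5 h were 2.46, 1.79 and -1.60 (limma F, adjusted p = 0.000613, 0.0013 and 0.000416). Dck, a nucleoside kinase, was at 8.50 and 8.45 in vehicle macrophages and 10.14 and 10.22 at 5 h, with T cells at 9.58 and 9.32, then 9.36 and 9.29. Trex1, an exonuclease for cytosolic DNA, was at 8.88 and 8.94 in vehicle macrophages and 10.09 and 10.19 at 5 h, and between 8.34 and 8.52 in T cells. The shift was 1.82 for Dck and 1.25 for Trex1 (limma F, adjusted p = 0.0052 for both). Sp100, a nuclear body protein, stayed higher in T cells in all 3 groups, and its macrophage levels were 9.90 and 9.97 in vehicle and 11.70 and 11.70 at 5 h against 12.18 and 12.26, then 12.32 and 12.35, in T cells (shift 1.65, limma F adjusted p = 0.0081, a call lost in 8 alternatives).

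**Figure D5:**
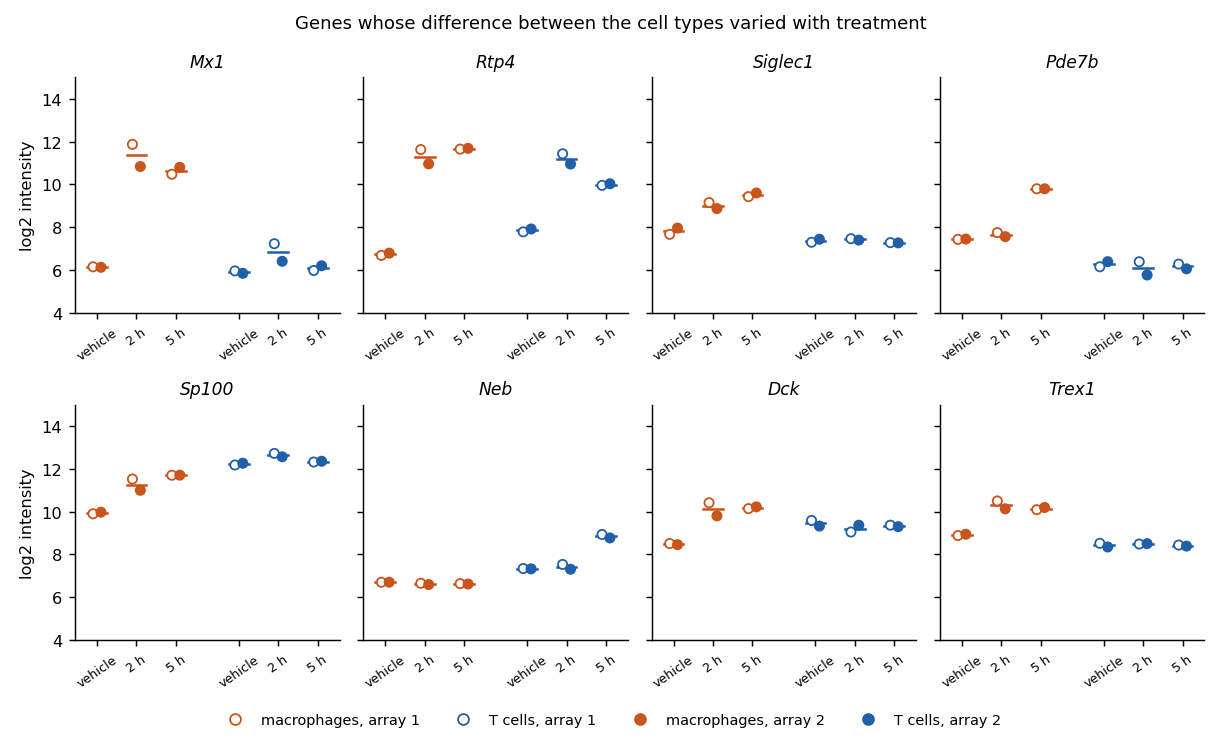
Log2 level of 8 genes in the 12 arrays, by treatment group (vehicle, 2 h and 5 h after IFNα) and cell type, with open points for array 1, filled points for array 2 and lines for the mean. Macrophage Mx1 is near 6 in vehicle and between 10.47 and 11.87 after IFNα, while T-cell Mx1 stays between 5.84 and 7.23.

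Not every interferon-stimulated gene shared that pattern. Ifitm3, a restriction factor of viral entry, was at 12.94 to 13.28 (median 13.18) in macrophages in every group, and in T cells at 5.34 and 5.88 in vehicle, 8.92 and 7.53 at 2 h (in the arrays with macrophage transcripts) and 7.07 and 7.49 at 5 h. Its mean difference of 6.10 was the widest of the 44. Ifit2, an RNA-binding antiviral protein, was higher in T cells, at 8.09 to 9.69 against 5.60 to 7.70 (-2.49). The Schlafen family of 8 had 1 gene called higher in macrophages and 4 in T cells in vehicle, 3 and 1 at 2 h, and 4 and 0 at 5 h, with medians of -0.96, 0.20 and 0.92. Slfn4 was higher in macrophages over the groups (4.71) and Slfn1 in T cells (-1.55).

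The 4 macrophage arrays without Ifnar1, from a C57BL/6 line 6 weeks old, were set beside the same T-cell arrays. By their titles 2 followed 10000 units of IFNα at 2 h and 2 carry no treatment, although the preparation label of all 4 names that dose. All 4 lay above all 6 T-cell arrays in 1532 of the 1570 genes higher in B10.Q/J macrophages (97.6%, against 19.4% of all genes). All 4 lay below them in 983 of the 992 genes higher in T cells (99.1%, against 20.7%). They share the T-cell arrays with the comparison above, so these counts are not independent of it.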

How the data were processed

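RNA of 12 sorted samples was hybridised to Affymetrix Mouse Gene 1.0 ST arrays. Per the submitters' processing notes, the authors summarised the probes with RMA in Affymetrix Power Tools. The deposited intensity values are on a linear scale, and log2 was taken here of the deposited intensities. RMA makes the arrays' distributions alike, so differences are relative to the typical gene. The table gives no detection p-values, so a level not above background is recognised only against the array's median. Of 24922 probe sets, 21425 had 1 symbol in the platform annotation, 1399 several and 2098 none. For 921 genes with several probe sets, the one with the highest mean was kept.

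limma 3.58.1 in R 4.3.3 fitted 6 groups of 2 arrays (6 residual degrees of freedom), with no filter on low values and Benjamini-Hochberg adjustment over 19752 genes. The procedure was tested on simulated data. The number of arrays limits the precision. Genes named were the given markers, the 15 widest differences each way among called genes with no overlap of arrays, members of 40 lists, and the 8 smallest p-values for variation with treatment. The members and lists were chosen with earlier results of these data known. Slfn5 and the 4 promoter windows were picked after their values were seen. Over all genes, arrays of the same replicate number deviated little in common (correlation of deviations 0.168 at 2 h, 0.0906 in vehicle and -0.0731 at 5 h). At 2 h, however, array 1 had the higher mean of the 44 antiviral genes in both cell types. It was 10.80 against 9.93 in macrophages and 10.42 against 9.69 in T cells. A pairing by number is therefore neither shown nor excluded. Alternatives covered filters, normalisation, variance model, probe sets, blocks, samples in the fit and each array left out.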

Additional observations from a re-analysis of the deposited data

Results flagged for a closer look

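The difference between macrophages and T cells varied with treatment, by limma's F test over both IFNα times, in 17 of the genes named or listed. Over all genes that test called 26, but only 5 in the lowest fit with 1 array left out and 7 in the lowest other alternative. Some of the 17 were therefore not called in those settings, and single losses are told only for Mx1 and Sp100. The values that follow are the change of the difference from vehicle to 5 h after IFNα on the log2 scale, and no explanation of them was tested. The change was toward macrophages for Mx1 (4.31), Oasl2 (3.18), Mx2 (2.92), Rtp4 (2.79), Pde7b (2.46), Ms4a6c (2.36), Slfn1 (2.27), Dck (1.82), Siglec1 (1.79), Ms4a6b (1.66), Sp100 (1.65), Xaf1 (1.58), Oas1a (1.32), Slfn2 (1.27) and Trex1 (1.25). It was toward T cells for Neb (-1.60). Lyz2 changed by 0.11 at 5 h and by -3.62 at 2 h, the time at which both T-cell arrays carried macrophage transcripts. Groups of 2 arrays are too small for a search for single arrays far from their group.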

How the results depend on the processing

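Of 641 named genes, 366 were called, and none of those reversed in any alternative; the other genes were not checked for reversal. The number of genes whose difference varied with treatment, 26, was 8 and 7 with filters on low values at the median and the 70th percentile (11162 and 7240 genes), 9 after quantile normalisation, 12 with trended and robust variance, 12 with all 16 arrays in the fit, 78 with a replicate block by treatment and number, 36 with a replicate block by number, and 5 to 424 with 1 array left out. Both blocks left the counts over the mean of the treatments at 1570 and 992. Genes higher in T cells numbered 579 in vehicle, 593 at 2 h and 579 at 5 h when tested against a 2-fold difference with limma's treat. With 1 array left out, genes higher in macrophages numbered 1562 to 1601 over the mean of the treatments, 1556 to 1576 in vehicle, 1525 to 1652 at 2 h and 1610 to 1624 at 5 h, and genes higher in T cells 974 to 1002, 967 to 1028, 1014 to 1240 and 967 to 1010. Of the 366, 13 lost the call in some alternative other than treat and other probe sets: Axl, Cmpk2, H2-Ab1, Ifih1, Il17ra, Irf2, Mx2, Oas2, Rsad2, Slfn9, Tap2, Vav1 and Zbp1. The fit without both T-cell arrays of 2 h was chosen after seeing the data. The median difference over all genes was -0.05, and -0.09 after subtracting array medians. With 2 arrays in a group and no detection calls, small changes in dim genes were not detectable. The F test was not run on only the groups compared, since it uses all 6.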

Other observations

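Called genes that were neighbours along a chromosome and ran the same way were counted, over 18528 protein-coding genes in RefSeq order. There were 8 runs of at least 4 genes, 4 in each direction. The longest was the GIMAP cluster on chromosome 6, 8 genes higher in T cells (median difference -3.56). On chromosome 14, Dock9, Ubac2, Gpr18, Gpr183 and Timm8a2 were higher in T cells (median -2.10), and on chromosome 1 the interferon-inducible genes Ifi214, Ifi213, Ifi209 and Ifi208 (median -3.90). On chromosome 13, Naip2, Naip5 and Naip6, which encode sensors of bacterial flagellin and secretion systems, and their neighbour Ocln were higher in macrophages (median 4.37). Gata6 lay in a run of 4 genes higher in macrophages with Abhd3, Mib1 and Cables1 (median 1.20). The runs of Naip and Ifi genes are families of like sequence, in which probes may respond to more than 1 member.

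The 387 genes at least 3 higher in B10.Q/J macrophages than in T cells (log2) were compared with the 4 macrophage arrays without Ifnar1. The B10.Q/J level was the mean of all 6 macrophage arrays, those after IFNα included. Furthest below it were Mx1, with a mean of 6.30 in the arrays without Ifnar1 (-3.08), Tdo2 (-2.84), Hpgd (-2.47) and Phf11d (-2.20). For Mx1 the arrays without Ifnar1, at 6.14 to 6.43, were near the lowest B10.Q/J array, a vehicle array at 6.12. For Tdo2, Hpgd and Phf11d they lay below every B10.Q/J macrophage array. In the other direction Lyve1 (1.57) and F13a1 (1.09) were higher in the arrays without Ifnar1. Strain, age, treatment and genotype differ together between those arrays and cannot be told apart.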
